A study of Mus musculus with 8 samples.

Results

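The CLCA family comprises 7 mouse genes, Clca1, Clca2, Clca3a1, Clca3a2, Clca3b, Clca4a and Clca4b, taken by symbol from the 25140 genes of the count table. The family was chosen with the difference between Yap1KO and Yap1WT in these libraries already known, the fall of Clca1 included, so that difference is given for the 7 genes as a description without a test. RNA was sequenced from EpCAM+ epithelial cells sorted from antral gastric tumors of 4 Gp130FF; Yap1KO mice and 4 Gp130FF; Yap1WT mice, 1 library per mouse. All 8 mice carry the gp130 mutation FF, which leads to gastric tumors, are 18 wk old and are labelled as taken 3 days after tamoxifen. In Yap1KO mice (Yap1 flox/flox), a Cre recombinase driven by the Tff1 promoter, which is active in surface mucous cells, removes exon 3 of Yap1 once tamoxifen is given. From where Tff1 is expressed, the study infers that the deletion also reached other epithelial cells, among them tumor, parietal, chief and mucous neck cells. The study describes Yap1WT mice as carrying the same floxed Yap1 and Cre, but given vehicle in place of tamoxifen. The vehicle differs from the labels, and the results text of the study gives an age of 20 wk. If vehicle was given, tamoxifen and the loss of Yap1 cannot be told apart in these libraries. In a separate experiment, the study reports less Clca1 transcript by qRT-PCR in Gp130FF tumor organoids after CRISPR knockdown of Yap1.

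CLCA proteins are made with a signal peptide and most are cut into parts that are secreted or stay at the cell surface. They were first named for a link to calcium-activated chloride currents, but are not channels themselves. CLCA1 is a metalloprotease that goblet cells of the intestine and airway release with mucus. It acts on the gel-forming mucin MUC2 and, in human cells, keeps the chloride channel ANO1 at the surface. Its gene is a classical target of the type 2 cytokine IL-13. Human CLCA2 marks stratified squamous epithelium, mouse Clca3a1 is expressed in lymphatic endothelium, and CLCA4 genes are expressed in the intestinal epithelium.

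The 7 genes lie side by side on the minus strand of chromosome 3 of GRCm38, from 144729677 to 145099443, a stretch of 369.8 kb, and the main GENCODE M21 transcript of each has 14 exons. In order along the chromosome they are Clca3a1 (144729677 to 144760977), Clca3a2 (144780581 to 144819623), Clca3b (144822623 to 144849302), Clca4b (144910921 to 144932529), Clca4a (144952486 to 144975045), Clca1 (145004537 to 145032776) and Clca2 (145070260 to 145099443). Some members share stretches of sequence, which bears on how reads are counted. Of all stretches of 80 bases, about the length of a read, 12.9% of Clca3a1 and 12.9% of Clca3a2 also occur in another member. The share was 10.5% in Clca4a, 10.6% in Clca4b and 1.37% in Clca3b, against 0% in Clca1 and 0% in Clca2. A single read from such a stretch fits more than 1 member, and its mate may or may not place it, so the counts of Clca3a1, Clca3a2, Clca4a and Clca4b are less certain, whereas those of Clca1 and Clca2 share no such stretch with a member. The longest coding runs that pairs share are shown because they mark where reads of the pairs are hardest to separate, with lower case for the first exon, capitals for the next, and both read 5′ to 3′ on the minus strand. Exons 6 and 7 of Clca3a1 (chr3:144751979-144754790) and of Clca3a2 (chr3:144810691-144813512) hold a run of 242 identical bases, and exons 8 and 9 of Clca4a (chr3:144960644-144961930) and of Clca4b (chr3:144919283-144921930) one of 168.
Clca3a1 and Clca3a2: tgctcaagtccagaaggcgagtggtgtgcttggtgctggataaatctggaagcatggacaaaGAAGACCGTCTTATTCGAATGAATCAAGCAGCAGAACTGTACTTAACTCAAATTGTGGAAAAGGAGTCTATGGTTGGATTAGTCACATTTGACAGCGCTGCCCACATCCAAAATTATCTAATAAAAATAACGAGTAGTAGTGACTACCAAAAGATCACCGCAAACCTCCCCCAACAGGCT
Clca4a and Clca4b: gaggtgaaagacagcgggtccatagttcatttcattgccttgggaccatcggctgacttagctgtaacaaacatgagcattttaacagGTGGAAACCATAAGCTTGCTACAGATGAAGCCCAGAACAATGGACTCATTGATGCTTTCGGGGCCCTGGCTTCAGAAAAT

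Total counts per library were 18229945 to 74278015 in Yap1KO and 27607755 to 77483047 in Yap1WT. The fit by edgeR (quasi-likelihood test) took in 13508 genes with more than 0.5 CPM (counts relative to library size, scaled by TMM factors) in at least 6 libraries. The deleted gene itself, Yap1, had 21.5, 27.9, 30.0 and 24.5 CPM in Yap1KO replicates 1 to 4, against 78.0, 64.9, 78.9 and 73.4 CPM in Yap1WT replicates 1 to 4. Each library matched its label (edgeR adjusted p = 0.000209, log2 fold change -1.51, standard error 0.13). Only exon 3 is removed, reads were not examined by exon, and the source of the Yap1 counts left in Yap1KO was not tested. Yap1KO replicate 4, the shallowest library, stood apart on the first principal component, at -67.2 against -1.05 to 6.66 in the other Yap1KO libraries. The female marker Xist had 0.767, 0.255, 0.535 and 181 CPM in Yap1KO, against 450, 0.283, 0.366 and 166 CPM in Yap1WT. The Y chromosome gene Ddx3y had 42.4, 37.6, 50.9 and 0 CPM in Yap1KO, against 0.0261, 61.1, 57.1 and 0 CPM in Yap1WT. Both groups thus held male and female mice, and sex was not in the model. By these genes Yap1KO replicate 4 was the only female of its group, so fits without it also leave out the only female Yap1KO mouse. Genes of endothelial cells, fibroblasts and leukocytes were also detected in the sorted cells, and the surface mucous genes Tff1 and Gkn1 were among the markers present in every library.

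Clca1 was the CLCA gene with the largest difference. It had 26.5, 17.4, 20.8 and 26.3 CPM in Yap1KO, against 302, 547, 485 and 680 CPM in Yap1WT, from 477 to 1595 reads per Yap1KO library and 18783 to 33105 per Yap1WT library. All 4 Yap1KO libraries lay below every Yap1WT library, and Yap1KO replicate 4 lay within the range of the other 3. The mean was 22.8 ± 4.44 CPM in Yap1KO and 504 ± 157 CPM in Yap1WT (SD, n = 4 each), which is 22.1-fold lower in Yap1KO (log2 fold change -4.47, standard error 0.26). Counted from the lowest log2 fold change, it ranked 2 among the 13508 tested genes. Leaving out any 1 library gave log2 fold changes of -4.65 to -4.29. The deposited log2 values, which the authors normalized in another way, gave a difference of -4.47. Of the 6 CLCA genes that passed the filter, Clca1 was the only one called, and lower, at an adjusted p under 0.05, where 316 (2.34%) of all tested genes were called lower and 476 (3.52%) higher. As the family was chosen on this contrast, nothing is read from that count.

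**Figure D1:**
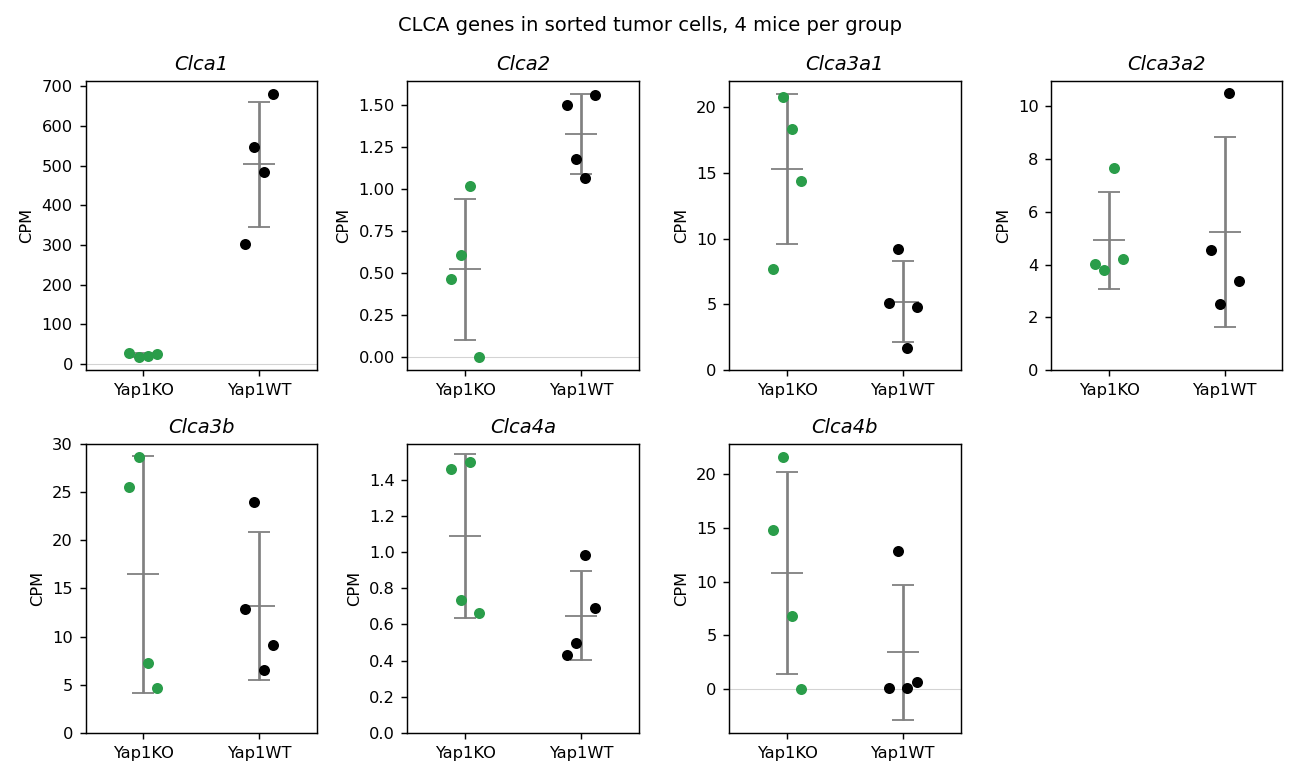
CPM (y axis, a scale of its own for each gene) of the 7 CLCA genes in the 4 Yap1KO libraries (green points, left) and the 4 Yap1WT libraries (black points, right), and grey bars for group means and SDs. Clca1 lies at 17.4 to 26.5 CPM in Yap1KO and 302 to 680 CPM in Yap1WT, while the other genes lie at or below 28.6 CPM in every library.

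Clca2, the squamous-type member, had 0.468, 0.607, 1.02 and 0 CPM in Yap1KO, against 1.50, 1.18, 1.07 and 1.56 CPM in Yap1WT. The groups did not overlap, although they rest on 0 to 78 reads per library in Yap1KO and 43 to 115 in Yap1WT, and the highest Yap1KO library lay just below the lowest Yap1WT library. The absence of reads in Yap1KO replicate 4 allows up to 0.166 CPM (3 reads), from counting error only. The log2 fold change was -1.26 (standard error 0.70), with -0.91 without Yap1KO replicate 4 and -1.80 without Yap1KO replicate 3. Lower values without overlap were found in 6.0% of all tested genes, and higher ones in 7.18%. Of 11 tested squamous epithelium markers (of 17), 0 were called in either direction, while before adjustment 3 were higher and 0 lower at p under 0.05, limma-voom called 1 and 0 and DESeq2 3 and 0. Their median log2 fold change was 0.68, beside -0.01 over all genes, 7 of 11 were above 0, and their sum was 180 to 327 CPM in Yap1KO and 106 to 211 CPM in Yap1WT. Of the 2 most abundant, Ivl, which encodes the cornified envelope protein involucrin, had 108, 48.3, 80.2 and 101 CPM in Yap1KO, against 36.0, 53.0, 28.9 and 73.3 CPM in Yap1WT, which overlap (log2 fold change 0.82, standard error 0.31, edgeR adjusted p = 0.164). Sprr1a, of the same envelope, had 68.0, 67.4, 57.4 and 97.0 CPM in Yap1KO, against 47.3, 37.0, 40.0 and 56.0 CPM in Yap1WT, without overlap (log2 fold change 0.68, standard error 0.18, edgeR adjusted p = 0.0543). The keratin gene Krt5, a marker of basal squamous cells chosen after its values were seen, had 9.71, 30.2, 3.19 and 24.8 CPM in Yap1KO, against 52.9, 7.75, 7.06 and 6.85 CPM in Yap1WT. Sprr1b, another marker, was at 0 in every library. The part of squamous cells in the level of Clca2 was not tested. The genes nearest in profile to Clca2 were Trp53rkb, Neil3, Slc25a37, Depdc1a and Gpr160 (root-mean-square distance 0.21 to 0.24 between log2 profiles over the 8 libraries, each centred on its mean, where Clca2 itself had an SD of 0.68).

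Clca3a1, known from lymphatic endothelium, was higher on average in Yap1KO. It had 7.69, 20.8, 18.3 and 14.4 CPM in Yap1KO, against 5.09, 9.23, 1.68 and 4.82 CPM in Yap1WT. Yap1KO replicate 1 lay below Yap1WT replicate 2, and the other 3 Yap1KO libraries lay above every Yap1WT library. The means were 15.3 ± 5.71 CPM in Yap1KO and 5.21 ± 3.10 CPM in Yap1WT (SD, n = 4 each; log2 fold change 1.56, standard error 0.47). Leaving out 1 library gave log2 fold changes of 1.26 to 1.99. Of 13 endothelial markers, all tested, 2 were called higher and 0 lower, beside 3.52% and 2.34% of all tested genes. All 13 markers were above 0, and their median log2 fold change was 1.22. Their sum was 672 to 1330 CPM in Yap1KO and 201 to 730 CPM in Yap1WT. Tie1 and Vwf, which encode a receptor kinase and von Willebrand factor, had log2 fold changes of 1.42 and 1.66 (standard errors 0.33 and 0.39, adjusted p = 0.0355 and 0.0361 from edgeR). With 1 library left out, the call of Tie1 held only without Yap1KO replicate 1 or Yap1WT replicate 4 and that of Vwf only without Yap1KO replicate 3 or Yap1WT replicate 4 (otherwise adjusted p = 0.0513 to 0.0973 and 0.0562 to 0.101), and 0 to 10 markers were called higher over these fits. Before adjustment 11 were higher and 0 lower at p under 0.05, limma-voom called 10 and 0 and DESeq2 6 and 0. Pecam1 had 76.0, 114, 109 and 169 CPM in Yap1KO, against 44.1, 42.5, 28.2 and 86.5 CPM in Yap1WT. Of the markers of lymphatic vessels, chosen after their values were seen, Lyve1 had 2.88, 4.15, 2.91 and 5.25 CPM in Yap1KO, against 5.44, 2.10, 3.76 and 6.01 CPM in Yap1WT, and Prox1 had 5.57, 2.24, 2.74 and 1.05 CPM, against 2.15, 4.05, 2.52 and 2.93 CPM. The groups overlapped for both. The part that endothelial cells have in the level of Clca3a1 was not tested, and in bulk RNA more cells of a type and more RNA per cell cannot be told apart. The tested genes whose centred log2 profile over the 8 libraries lay nearest to that of Clca3a1 were Ms4a6d, Aplnr, Egfl7, Arap3 and Fam167b (root-mean-square distance 0.31 to 0.38 on the log2 scale, where Clca3a1 itself had an SD of 1.10).

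Clca3a2, which shares part of its sequence with Clca3a1, had 4.02, 3.80, 7.65 and 4.20 CPM in Yap1KO, against 4.56, 2.52, 10.5 and 3.37 CPM in Yap1WT. Replicate 3 was the highest of both groups, and the ranges overlapped (log2 fold change -0.09, standard error 0.45). Leaving out 1 library gave -0.39 to 0.50. The nearest genes by the same measure were Nr2f2, Smpdl3b, Acacb, Ccp110 and Ptpn2 (0.33 to 0.37).

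Clca3b had 25.5, 28.6, 7.22 and 4.64 CPM in Yap1KO, against 12.9, 24.0, 6.55 and 9.13 CPM in Yap1WT. The groups overlapped (log2 fold change 0.33, standard error 0.58, and -0.07 to 0.80 without 1 library), but replicates 1 and 2 were higher than replicates 3 and 4 in both. Replicates 1 and 2 carry mouse numbers of a lower series in the labels and replicates 3 and 4 of a higher one, with 2 mice of each genotype in each series. What the numbers stand for is not stated. This contrast played no part in the choice of the family, so it was tested, with genotype in the model. Clca3b had 6.88 ± 1.85 CPM in the mice with higher numbers and 22.8 ± 6.87 CPM in those with lower numbers (SD, n = 4 each), with ranges of 4.64 to 9.13 and 12.9 to 28.6 CPM (log2 difference -1.70, standard error 0.29). Its unadjusted p of 0.000168 from edgeR ranked 31 among all genes, and its adjusted p of 0.0726 did not pass, although it passed by DESeq2 (adjusted p = 1.18e-06), without a filter on low counts (adjusted p = 0.000312) and without Yap1WT replicate 1 (adjusted p = 0.0298). In all, 7 genes (0.0518%) were called in this contrast, Gp2, Mug1, Muc13, A2m, Cnn3, ND4 and Nccrp1. The other tested CLCA genes had adjusted p-values of 0.427 (Clca3a2) to 0.992 (Clca2). The nearest genes to Clca3b were Shc2, Cfhr2, Vdr, Pcdhb9 and Cdhr5 (0.36 to 0.47).

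**Figure D2:**
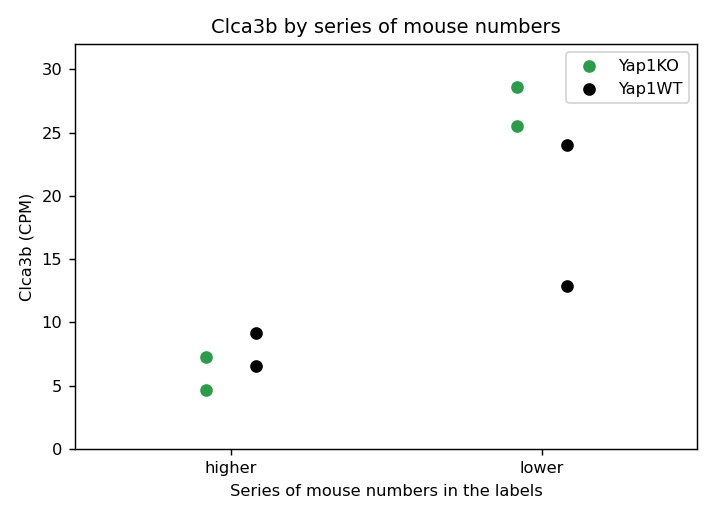
CPM of Clca3b (y axis) in mice with the higher (left) and the lower (right) series of numbers, for Yap1KO (green) and Yap1WT (black), 2 mice of each genotype in each series. All 4 mice with the higher numbers lie at 4.64 to 9.13 CPM and all 4 with the lower numbers at 12.9 to 28.6 CPM.

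Clca4a had 1.46, 0.735, 1.50 and 0.663 CPM in Yap1KO, against 0.430, 0.495, 0.981 and 0.688 CPM in Yap1WT. All values were low and the groups overlapped (log2 fold change 0.77, standard error 0.48). The genes nearest to it, Pip5k1b, Entpd3, Lgr5, Foxa2 and Fam102b, all lay at a distance of 0.19, where Clca4a itself had a mean at or below 1.09 CPM in each group.

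Clca4b was present in some libraries and nearly absent from others. It had 14.8, 21.6, 6.78 and 0 CPM in Yap1KO, against 0.0652, 12.8, 0.132 and 0.616 CPM in Yap1WT, or 790, 677, 519 and 0 reads against 5, 542, 9 and 17. The 3 high Yap1KO libraries and Yap1WT replicate 2 lay apart from the other 4, which held 17 reads or fewer each. Among those 4, Yap1KO replicate 4 and Yap1WT replicates 1 and 4 were high in Xist, and Yap1WT replicate 3 was high in Ddx3y. The part of sex in the level of Clca4b was not tested. With more than 0.5 CPM in 5 libraries, Clca4b missed the filter and was not tested. With the filter at 4 libraries its log2 fold change was 1.68 (standard error 1.53), and without Yap1WT replicate 2 it was 5.54 (standard error 1.53). Some markers of enterocytes, the absorptive cells of the intestine, followed the same libraries, and others did not. Cdh17, an intestinal cadherin gene, had 55.7, 53.5, 22.2 and 6.79 CPM in Yap1KO, against 0.443, 29.9, 0.308 and 5.29 CPM in Yap1WT, and Alpi, the intestinal alkaline phosphatase gene, had 219, 226, 94.4 and 43.2 CPM, against 23.6, 183, 38.7 and 46.7 CPM. Anpep instead was lowest in replicate 2 of both groups, at 24.9 CPM in Yap1KO and 17.7 CPM in Yap1WT. Fabp2 had 14.6, 12.8, 6.27 and 5.47 CPM in Yap1KO, against 9.49, 30.9, 22.3 and 13.9 CPM in Yap1WT. Of 15 such markers 9 were tested and 0 were called in either direction (before adjustment 1 was higher and 1 lower at p under 0.05, and limma-voom and DESeq2 each called 0). Their median log2 fold change was 0.80, 8 of 9 were above 0, and their sum was 657 to 1010 CPM in Yap1KO and 483 to 731 CPM in Yap1WT. Vil1, the villin gene, was the most abundant, at 505 ± 61.0 CPM in Yap1KO and 422 ± 20.1 CPM in Yap1WT (SD, n = 4 each). The genes nearest to Clca4b, chosen after its values were seen, were Muc3, Akp3, Mgam, Myo7b and Cdh17 (0.86 to 1.02). Mgam, which encodes an intestinal disaccharidase, had 28.3, 22.5, 7.29 and 1.88 CPM in Yap1KO, against 2.26, 14.7, 2.59 and 2.50 CPM in Yap1WT. The part that intestinal-type cells have in the level of Clca4b was not tested.

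**Figure D3:**
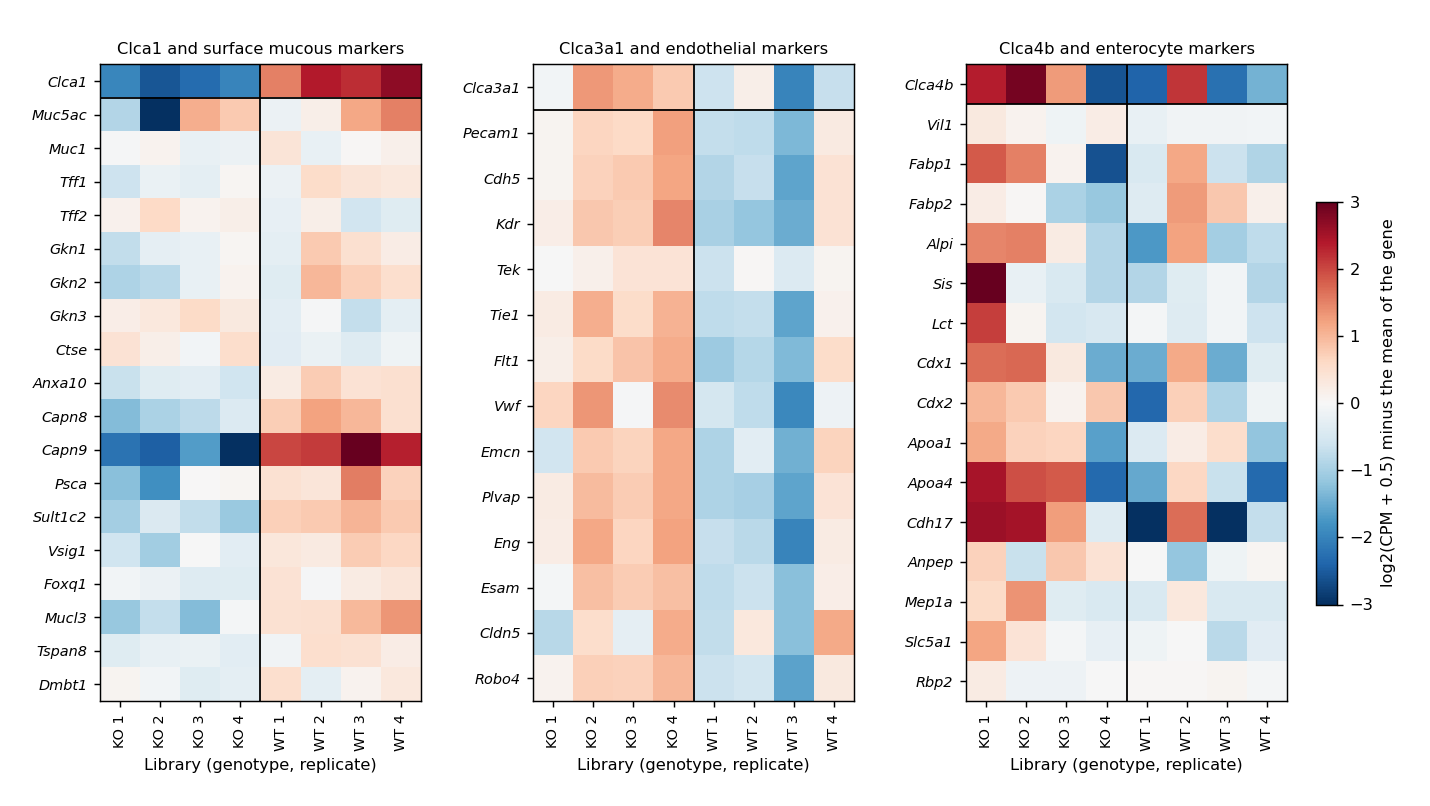
Log2(CPM + 0.5) of each gene minus its mean over the 8 libraries (color, from blue below to red above, cut at -3 and 3), with Yap1KO libraries left of the line and Yap1WT libraries right of it, for Clca1 with surface mucous markers, Clca3a1 with endothelial markers and Clca4b with enterocyte markers. Clca1 and Capn9 are low in all 4 Yap1KO libraries, and Clca4b and Cdh17 are high in Yap1KO replicates 1 to 3 and Yap1WT replicate 2.

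Since the genes are of unequal length, their levels were compared as CPM per kb of the main transcript. In Yap1WT, Clca1 stood far above the rest, at 138 ± 43.0 CPM per kb (SD, n = 4), and made up 90.8% to 97.0% of the family sum. In Yap1KO it had 6.23 ± 1.22 CPM per kb and made up 17.1% to 51.3%. It was followed there by Clca3b (4.91 ± 3.67 CPM per kb), Clca3a1 (4.34 ± 1.62), Clca4b (3.60 ± 3.14), Clca3a2 (1.35 ± 0.501), Clca4a (0.363 ± 0.151) and Clca2 (0.131 ± 0.105). The ranges of Clca1, Clca3b, Clca3a1 and Clca4b overlapped in Yap1KO, so that order is not resolved. In Yap1WT the order after Clca1 was Clca3b (3.91 ± 2.30), Clca3a1 (1.48 ± 0.879), Clca3a2 (1.43 ± 0.985), Clca4b (1.13 ± 2.09), Clca2 (0.333 ± 0.0600) and Clca4a (0.216 ± 0.0823), where Clca3b overlapped Clca3a1, Clca3a2 and Clca4b and lay above Clca2 and Clca4a. Clca2 and Clca4a, the 2 lowest, overlapped in both groups. The whole family summed to 20.9 ± 6.06 CPM per kb in Yap1KO and 146 ± 43.6 CPM per kb in Yap1WT. Without Clca1 the other 6 summed to 16.4, 23.1, 12.5 and 6.84 CPM per kb in Yap1KO, against 7.07, 15.2, 5.93 and 5.83 CPM per kb in Yap1WT, which overlap.

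**Figure D4:**
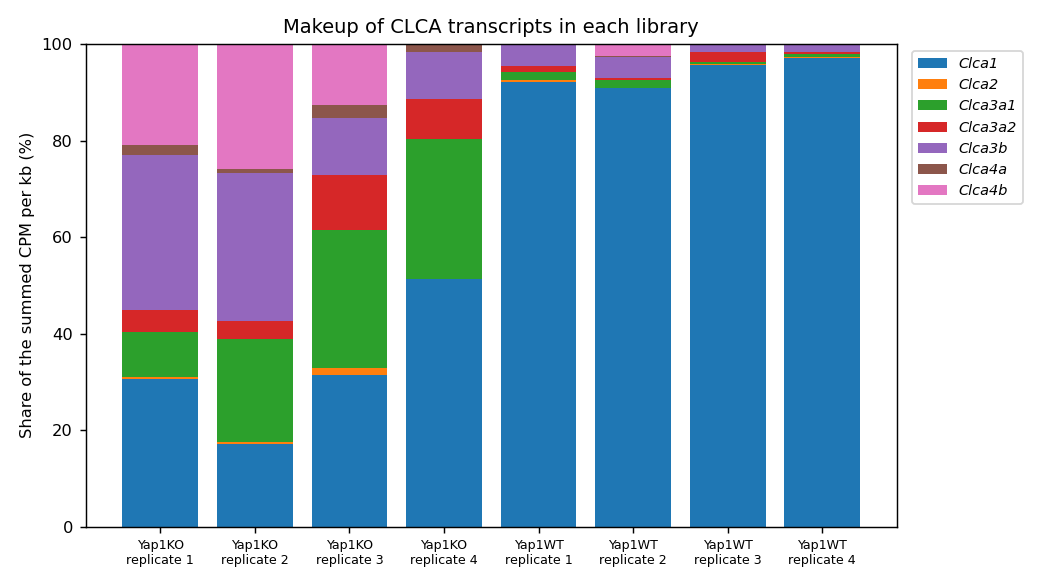
Share (y axis, percent) of each CLCA gene in the summed CPM per kb of the family, by library, with Yap1KO replicates 1 to 4 on the left and Yap1WT replicates 1 to 4 on the right. Clca1 takes 17.1% to 51.3% in Yap1KO libraries and 90.8% to 97.0% in Yap1WT libraries.

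Genes that usually accompany Clca1 in mucous cells were called in both directions. Of 14 tested genes of goblet cells and mucus (of 20), 2 were called higher and 3 lower, beside 3.52% and 2.34% of all tested genes. The median log2 fold change of the 14 was 0.50. Spdef and Agr2, which encode a transcription factor and a mucin-folding protein of goblet cells, were higher (log2 fold changes 0.59 and 0.79, standard errors 0.12 and 0.20, adjusted p = 0.0215 and 0.0475 from edgeR). Bcas1, Sytl2 and Ern2, a stress sensor of mucous cells, were lower (log2 fold changes -0.89, -1.07 and -0.40, adjusted p = 0.00368, 0.00715 and 0.0482 from edgeR). Muc2, the mucin on which CLCA1 acts, was named after its values were seen. It had 5.29, 10.3, 2.10 and 1.44 CPM in Yap1KO, against 0.235, 5.42, 0.337 and 1.23 CPM in Yap1WT, and was not called (edgeR adjusted p = 0.463, log2 fold change 1.42, standard error 0.96). The call of Spdef was lost without Yap1KO replicate 1, 3 or 4 or Yap1WT replicate 3 (adjusted p = 0.0514 to 0.0765). With 1 library left out, that of Agr2 held only without Yap1WT replicate 2 and that of Ern2 only without Yap1WT replicate 4 (otherwise adjusted p = 0.0638 to 0.131 and 0.0814 to 0.121), and 0 to 3 genes of the list were higher and 2 to 3 lower.

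Markers of surface mucous (foveolar) cells, which are among the cells in which the Cre is active, held more genes called lower than higher. Of 17 tested (of 18), 7 were lower and 1 higher, with a median log2 fold change of -0.62. Of all tested genes, 2.34% were called lower and 3.52% higher. The list holds Capn8 and Sult1c2, which the study had already named from these data. Nothing is therefore read from the count. Sult1c2 had 148, 224, 182 and 140 CPM in Yap1KO, against 496, 520, 616 and 519 CPM in Yap1WT (edgeR adjusted p = 0.000351, log2 fold change -1.63, standard error 0.16). Capn8, Mucl3 and Anxa10 had log2 fold changes of -1.76, -1.58 and -0.98, and their calls held without any 1 library. Gkn3, a gastrokine gene, was higher (log2 fold change 0.68, adjusted p = 0.0342 from edgeR), a call that with 1 library left out held only without Yap1WT replicate 2 (otherwise adjusted p = 0.0552 to 0.0852). Capn9, a gastric calpain gene named after its values were seen, had 0.468, 0.319, 0.901 and 0 CPM in Yap1KO, against 17.4, 18.8, 37.9 and 22.1 CPM in Yap1WT, and missed the filter. The lower markers numbered 4 to 7 with any 1 library left out, and 4 without Yap1KO replicate 4. Summed over the list, the markers had 108000 to 133000 CPM in Yap1KO and 110000 to 147000 CPM in Yap1WT. The part of surface mucous cells in the level of Clca1 was not tested. The genes nearest to Clca1 over the 8 libraries were Gsdma2, Capn13, Gsta5, Fhl1 and Gsta1 (distance 0.71 to 0.99, where Clca1 had an SD of 2.38). As they were picked for a profile like that of Clca1, their lower values in Yap1KO follow from the choice. Gsdma2, a gasdermin gene, had 3.87, 2.68, 7.14 and 6.35 CPM in Yap1KO, against 134, 68.6, 229 and 95.7 CPM in Yap1WT (log2 fold change -4.72, standard error 0.44).

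Of 17 tested genes of chloride and bicarbonate transport (of 22), 3 were higher and 0 lower, beside 3.52% and 2.34% of all tested genes. Before adjustment 4 of the 17 were lower at p under 0.05, while limma-voom called 1 lower and DESeq2 2. Their median was 0.05. The higher ones were Slc26a9, an anion transporter gene of gastric surface cells, Ano10 and Slc12a2, the chloride uptake carrier (log2 fold changes 0.83, 0.57 and 0.61, adjusted p = 0.00619, 0.0166 and 0.0485 from edgeR). With 1 library left out, Slc12a2 kept its call only without Yap1KO replicate 2 (otherwise adjusted p = 0.0772 to 0.146) and Ano10 lost it without Yap1KO replicate 1 or 4 (adjusted p = 0.0516 and 0.0520). Ano1, the channel that CLCA1 acts on, had 171, 130, 116 and 178 CPM in Yap1KO, against 201, 164, 179 and 217 CPM in Yap1WT, and was not called (log2 fold change -0.36, adjusted p = 0.226).

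Of 16 tested genes of the type 2 cytokine response (of 21), Spdef alone was higher and 0 were lower, beside 3.52% and 2.34% of all tested genes. Before adjustment 3 of the 16 were lower at p under 0.05, while limma-voom called 1 lower and DESeq2 0. Their median was 0.12. Il4ra and Stat6, the receptor chain and transcription factor through which IL-13 acts, had log2 fold changes of 0.29 and -0.23 and were not called (adjusted p = 0.241 for Stat6). The chitinase-like genes Chil3 and Chil4, near-identical copies whose reads can be split between them, were named after their values were seen. Chil4 had 390, 104, 86.8 and 1050 CPM in Yap1KO, against 1520, 835, 2550 and 1820 CPM in Yap1WT (log2 fold change -2.04, standard error 0.72, edgeR adjusted p = 0.141), and Chil3 had 11.8, 2.30, 2.42 and 42.5 CPM, against 43.9, 33.6, 98.5 and 78.1 CPM (log2 fold change -2.15, standard error 0.83, edgeR adjusted p = 0.172). Yap1KO replicate 4 was the highest Yap1KO library for both and overlapped Yap1WT. Without it both were called lower (log2 fold changes -3.52 and -3.12 for Chil3 and Chil4, edgeR adjusted p = 0.0242 and 0.0260), and Spdef was not called.

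Markers of other cells that the sort could hold were also counted. Of 15 fibroblast and smooth muscle markers 0 were called (0 also before adjustment at p under 0.05, and by limma-voom and DESeq2), 14 were above 0 and their sum was 399 to 1320 CPM in Yap1KO and 149 to 999 CPM in Yap1WT. The 2 most abundant, the collagen genes Col3a1 and Col1a1, had 284 ± 156 and 144 ± 64.6 CPM in Yap1KO, against 138 ± 123 and 62.3 ± 59.4 CPM in Yap1WT (SD, n = 4 each). Of 6 tested leukocyte markers (of 20), Cd68 and Mcpt1, of macrophages and mast cells, were higher (log2 fold changes 1.06 and 2.57, adjusted p = 0.0469 and 0.0473 from edgeR), and 0 were lower. Of all tested genes, 3.52% were called higher and 2.34% lower. Before adjustment 4 of the 6 markers were higher and 1 lower at p under 0.05, while limma-voom and DESeq2 each called 3 higher and 0 lower. The lower one, Ptprc, the gene of the pan-leukocyte protein CD45, had 4.53, 4.34, 1.20 and 4.31 CPM in Yap1KO, against 7.72, 6.22, 12.5 and 5.69 CPM in Yap1WT, without overlap (log2 fold change -1.17, standard error 0.43, edgeR adjusted p = 0.151). Itgam, a myeloid integrin gene, had a log2 fold change of -1.01 (adjusted p = 0.618). The list summed to 324 to 829 CPM in Yap1KO and 68.8 to 279 CPM in Yap1WT, most of it from the mast cell protease genes Mcpt1 and Mcpt2 and from Kit, with Mcpt2 at 515, 613, 241 and 683 CPM in Yap1KO, against 117, 208, 19.0 and 34.3 CPM in Yap1WT. The mast cell genes Cpa3 and Tpsb2 were at or below 0.118 and 0 CPM in Yap1KO and 0.571 and 0.498 CPM in Yap1WT, and the T cell gene Cd8a was at 0 in every library. With 1 library left out, Cd68 kept its call only without Yap1KO replicate 4 and Mcpt1 only without Yap1KO replicate 3 or Yap1WT replicate 2 (otherwise adjusted p = 0.0663 to 0.144 and 0.0681 to 0.103). Without Yap1KO replicate 4, 0 endothelial markers were called.

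**Figure D5:**
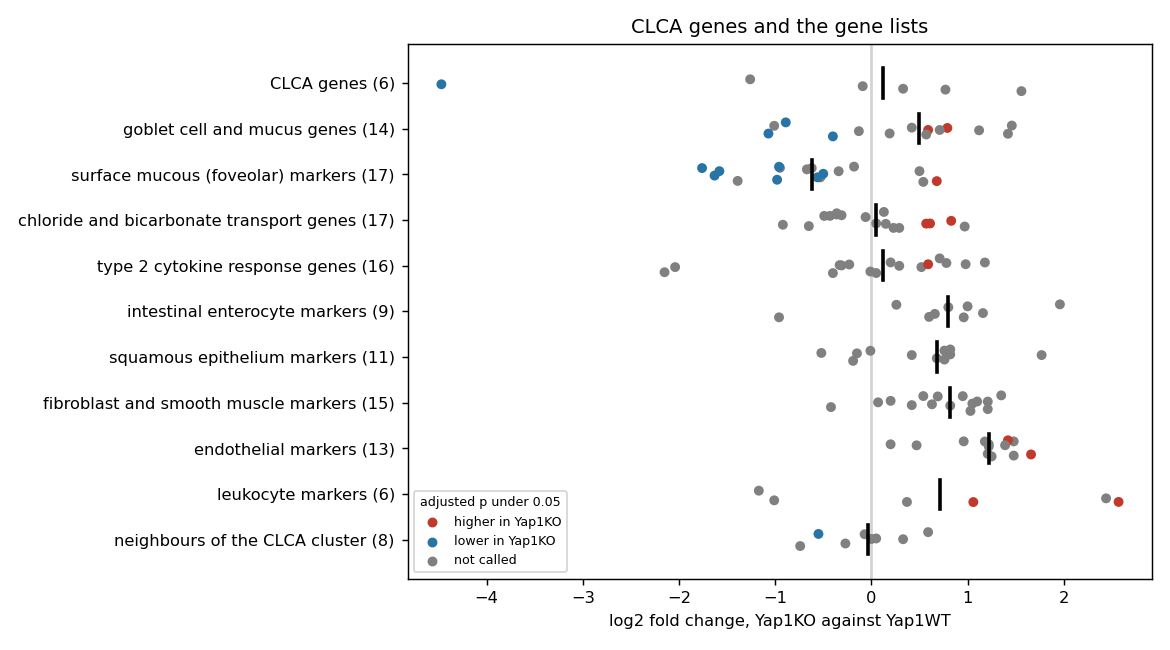
Tested genes of the CLCA family and of 10 gene lists (y axis, with the number tested) by their log2 fold change in Yap1KO over Yap1WT (x axis), colored where edgeR made a call (red higher, blue lower, grey none), black lines marking medians. Clca1 lies at -4.47, apart from every other gene of the lists, and the endothelial and surface mucous medians lie at 1.22 and -0.62.

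Of the 10 nearest protein-coding genes around the cluster, 9 were in the table and 8 were tested. Of the tested neighbours 1 was lower and 0 were higher, beside 2.34% and 3.52% of all tested genes. The median of these neighbours was -0.03. Before adjustment 1 was higher and 2 lower at p under 0.05, and limma-voom and DESeq2 each called 1 higher and 2 lower. Lmo4, 524.4 kb away, was lower (log2 fold change -0.55, adjusted p = 0.0342 from edgeR), a call that with 1 library left out held only without Yap1WT replicate 2 or 4 (otherwise adjusted p = 0.0614 to 0.113). Sh3glb1, 9.3 kb from Clca3a1, and Odf2l, 19.1 kb from Clca2, had log2 fold changes of -0.07 and -0.74 (adjusted p = 0.708 and 0.0566). Hs2st1, Selenof, Znhit6 and Ddah1 had log2 fold changes of 0.33, 0.00, -0.27 and 0.59 and were not called (adjusted p = 0.0692 to 1.0), Col24a1 missed the filter, and Gm43707 was not analysed here. Ccn1, a canonical target of YAP, lies 547.5 kb from the cluster and had 83.1 to 155 CPM in Yap1KO and 66.8 to 128 CPM in Yap1WT (edgeR adjusted p = 0.943, log2 fold change 0.05, standard error 0.24).

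Promoter windows of 5 members, from 250 bases before to 50 after the start of the gene, were read from RefSeq (GRCm38.p6). The TEAD motif CATTCC, through which YAP binds DNA with TEAD, was found on either strand in Clca4b, as in 14.7% of 32851 promoters. The STAT3 motif TTCNNNGAA was found in Clca2, as in 8.3%, and the STAT6 motif in none of the 5, against 7.0%. The windows of Clca1 and Clca4a were not analysed here.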

How the data were processed

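EpCAM+ cells of antral gastric tumors from 4 Gp130FF; Yap1KO and 4 Gp130FF; Yap1WT mice were profiled by bulk RNA-seq. Per the study's methods, libraries were made with TruSeq RNA v2, which does not mark strand, so overlapping antisense genes cannot be told apart. The authors aligned reads with Subread to GRCm38/mm10 and counted them per gene with featureCounts, and the deposited counts are whole numbers without normalization. The deposited log2 values are RPKM on a log2 scale that the authors made with voom and quantile normalization, and the header calls them FPKM.

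Mouse numbers matched table columns to samples, and 6 further columns matched none and stayed unused. Of 27179 entries, 1277 without a symbol (0.552% to 0.789% of a library's counts) and 762 pseudogenes were left out, and 73 pseudogenes that the deposited log2 values hold were kept. The main comparison used edgeR 4.0.16 under R 4.3.3, with TMM factors and the quasi-likelihood F test, on genes that exceeded 0.5 CPM in 6 or more libraries. P-values were adjusted by Benjamini-Hochberg at 0.05. Standard errors were derived from F and the log2 fold change, and p-values weigh a difference between groups against the variation between mice. The script was tested on simulated data. A likeness is the root-mean-square difference of log2(CPM + 0.5) profiles, each centred on its own mean, over genes whose higher group averaged 5 CPM or more. Python 3.11.15, pandas 2.3.3 and matplotlib 3.10.9 made the summaries and plots.

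The family and the gene lists were chosen with earlier results of these data known, so counts of called genes in the lists are descriptions. Each such count stands beside the 3.52% of all tested genes called higher and the 2.34% called lower. Named were the 7 CLCA genes, Yap1, up to 4 called genes per list and direction by p or else the 2 most abundant, the 10 neighbouring genes and the 5 genes nearest in profile to each tested CLCA gene. Cdh17, Anpep, Fabp2, Krt5, Chil3, Chil4, Ptprc, Itgam, Mcpt2, Kit, Cpa3, Tpsb2, Muc2, Capn9, Sprr1b, Cd8a, Ano1, Il4ra, Stat6, Lyve1, Prox1, Pecam1, Tff1, Gkn1, Xist, Ddx3y, the genes near Clca4b and those called by mouse number were named in addition, after their values were seen. Alternatives were limma-voom with quantile normalization (limma 3.58.1), DESeq2 1.42.0, limma-trend on the deposited log2 values, other scaling, other filters, a pseudocount of 1 CPM, blocks for the replicate number and the series of mouse numbers, and leaving out each library.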

Additional observations from a re-analysis of the deposited data

Results flagged for a closer look

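In 14 groups of 4 libraries (7 CLCA genes in each genotype), the distance of the highest or lowest library from its nearest neighbour was set against the range of the group, and chance marks about 1 group in 20. Clca3a2 in Yap1KO replicate 3, at 7.65 CPM, stood apart from the other Yap1KO libraries at 3.80 to 4.20 CPM. Clca4b in Yap1WT replicate 2, at 12.8 CPM, stood apart from the other Yap1WT libraries at 0.0652 to 0.616 CPM.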

How the results depend on the processing

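The log2 fold change of Clca1 lay between -4.65 and -4.29 under every alternative, as a description. By DESeq2 845 genes were higher and 569 lower, 2 CLCA genes (Clca1 and Clca3a1) and 40 genes of the lists were called, and 460 genes by mouse number. Same-numbered mice of the 2 genotypes had correlations of 0.0304, 0.348, 0.0514 and 0.146, so the numbers were not taken as pairs; with a replicate block 755 genes were higher, 551 lower and 43 genes of the lists called, against 21 without it. Limma-voom called 36 genes of the lists and 11 by mouse number, a block for the series of mouse numbers 32 of the lists, and no filter 362 by mouse number. Leaving out 1 library gave 240 to 480 higher and 156 to 290 lower genes, 1 to 2 CLCA genes, 8 to 22 genes of the lists and 4 to 35 genes by mouse number. As the family was chosen on the contrast of Yap1KO with Yap1WT, nothing is read from the calls of CLCA genes in any of these settings. The log2 fold change of Clca2 was -1.89 by limma-trend, -0.61 with a pseudocount of 1 CPM and -1.80 to -0.91 without 1 library. That of Clca4a was 1.16 by limma-voom and 0.34 with the pseudocount, and that of Clca4b 1.12 to 5.54 without 1 library. The difference of Clca3b by mouse number was -1.70 by DESeq2 (adjusted p = 1.18e-06), -1.71 without a filter (adjusted p = 0.000312) and -1.96 to -1.50 without 1 library. Without 1 library Selenof ranged from -0.08 to 0.16 (highest without Yap1WT replicate 2) and Ccn1 from -0.21 (without Yap1KO replicate 2) to 0.19, so both changed sign. The cause was not tested. Clca2, Clca4a and, in 4 libraries, Clca4b rest on few reads per library, which limits them.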
